A study of Homo sapiens with 4 samples.

Results

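Genes of cholesterol synthesis, cholesterol uptake and transport, and SREBP control were followed in MOLM-14, an established cell line from a human acute myeloid leukemia that has monocyte traits. The set was a list of 28 gene symbols drawn up by function, with earlier results of these data known. A gene counted as measured when at least 1 probe set was annotated with its symbol alone. By that rule 26 of the 28 were measured, out of 18377 genes in all. HSD17B7 lay only in a probe set shared with its pseudogene, and FDFT1 is not analysed here. Each measured member had a single probe set. The control group is 2 samples given the solvent DMSO, and the treated group is 2 samples given 2 µM DZNep, all in RPMI medium with fetal bovine serum, and the treatments ran for 24 h. DZNep, 3-deazaneplanocin A, inhibits S-adenosylhomocysteine hydrolase and is used to lower the histone methyltransferase EZH2. Total RNA of each sample was hybridised to an Affymetrix whole-transcript array, so there were 4 arrays. The 2 samples of a group are labelled biological replicates. Whether they were separate cultures is not stated, so the p-values reflect the spread among these samples alone, and that spread may be technical.

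Cholesterol is built from acetyl-CoA. Thiolase and synthase steps lead into the mevalonate pathway, which ends in isoprenoid units, and these are joined to squalene, closed to lanosterol and trimmed to cholesterol. The transcription factors SREBP-1 and SREBP-2, encoded by SREBF1 and SREBF2, switch on most of these enzymes when the sterol content of the endoplasmic reticulum is low. SCAP escorts the SREBPs to the Golgi for cleavage, and the INSIG proteins hold SCAP back when sterols are plentiful. Cells also take up cholesterol in lipoproteins, release it from lysosomes through NPC1 and NPC2, move it between membranes with carriers such as STARD4, and store it as esters made by SOAT1. Growing leukemia cells need this supply for new membranes.

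The values were intensities that the authors made with RMA, and they are given here as log2 intensity. Differences are DZNep minus DMSO in log2 units, tested with limma across all genes, and a gene is said to have risen or fallen when the Benjamini-Hochberg adjusted p was under 0.05. An exact permutation of 2 against 2 arrays cannot give 1 gene a p under 0.333, so the calls depend on how limma pools the spread over genes, and precision is limited by the small number of arrays. The median log2 intensity of the genes was between 7.44 and 7.46 on DMSO arrays and 7.46 on both DZNep arrays. The transcript of EZH2 fell by 0.76 on the log2 scale (limma adjusted p = 0.0016), and its protein was not measured here. Of 10 myeloid leukemia markers measured, 9 were above the array's median gene on all 4 arrays, ANPEP being the other one, and of 11 markers of lymphoid and non-blood cells 1 was (COL1A1). Of the myeloid markers, 3 were called: the receptor FLT3 fell by 0.94 (limma adjusted p = 5.3e-04), and LYZ and CSF1R, lysozyme and a receptor of the monocyte line, had 0.53 (0.0114) and 0.47 (0.0128). The 7 not called ran from −0.38 for CD68 to 0.12 for PTPRC (limma adjusted p 0.0826 and 0.558). In CD68 and in ITGAM (−0.22, limma adjusted p = 0.246) both DZNep arrays lay below both DMSO arrays, so the list did not move in 1 direction. The call of LYZ ended without DZNep replicate 1 (0.48, limma adjusted p = 0.0706), and that of CSF1R without DZNep replicate 1 (0.46, 0.094) or 2 (0.47, 0.0769). These markers moved with the groups compared below, and their part in the results was not tested. The mean log2 intensity of the myeloid list was 9.37 to 9.41 with DMSO and 9.31 to 9.35 with DZNep, and that of the other list, whose adjusted p ran from 0.321 to 0.993, 6.32 to 6.48 with DMSO and 6.42 to 6.48 with DZNep. In a bulk extract, fewer cells of a kind and less RNA per cell cannot be told apart.

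In DZNep-treated cells a subset of the cholesterol genes fell and no member rose. The members that fell were STARD4, MSMO1, HMGCS1, SQLE, IDI1, ACAT2, DHCR7, CYP51A1, SREBF2 and SOAT1, 10 of 26. They span the first step of the pathway, several later steps, the factor SREBP-2 and the ester-forming enzyme. The falls ran from 1.36-fold for SOAT1 to 2.47-fold for STARD4. Over all genes tested, 6.68% fell and 3.62% rose by the same rule (limma). These shares stand for 1227 and 665 genes, which became 734 and 439 when DZNep replicate 1 was left out and 845 and 336 when DZNep replicate 2 was. At an unadjusted p of 0.05, too, the count of members that rose was 0. The share of all genes at that looser threshold is not given here, so this count cannot be set against it. The median log2 fold change of the 26 members was −0.21, against 0.02 over all genes tested. Both DZNep arrays lay below both DMSO arrays for 17 members, against 23.9% of all genes, and above them for 1, against 25.9%. Since the members were listed with earlier results of these data known, these comparisons are description and not a test.

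The promoters of members that fell and of members that were not called are shown beside each other, because the members are known for shared control by SREBPs and their partner factors. Each sequence runs 5′ to 3′ on the gene's strand from 200 to 26 bases before the start site of the RefSeq promoter (GRCh38.p14). Capitals mark the sterol regulatory element TCACNCCAC, to which SREBPs bind, and the NF-Y box CCAAT on either strand (ATTGG where it lies on the other strand). SREBF2 (chr22:41832905-41833079, plus strand), STARD4 (chr5:111512561-111512735, minus strand), MSMO1 (chr4:165327469-165327643, plus strand) and HMGCS1 (chr5:43313438-43313612, minus strand) fell. HMGCS1 has 2 start sites in the table, and the one with more CCAAT boxes is printed. INSIG1 (chr7:155297678-155297852, plus strand) and MVK (chr12:109573594-109573768, plus strand) were not called.
SREBF2: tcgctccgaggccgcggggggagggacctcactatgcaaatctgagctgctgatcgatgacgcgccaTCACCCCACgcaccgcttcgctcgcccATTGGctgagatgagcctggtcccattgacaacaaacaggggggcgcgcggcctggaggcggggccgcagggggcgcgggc
STARD4: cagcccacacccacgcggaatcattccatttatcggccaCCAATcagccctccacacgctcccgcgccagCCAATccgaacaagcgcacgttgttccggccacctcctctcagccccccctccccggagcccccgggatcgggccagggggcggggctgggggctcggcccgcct
MSMO1: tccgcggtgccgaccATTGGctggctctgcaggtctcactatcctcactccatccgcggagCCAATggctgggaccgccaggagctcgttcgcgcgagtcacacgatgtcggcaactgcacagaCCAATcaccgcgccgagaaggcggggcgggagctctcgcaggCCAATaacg
HMGCS1: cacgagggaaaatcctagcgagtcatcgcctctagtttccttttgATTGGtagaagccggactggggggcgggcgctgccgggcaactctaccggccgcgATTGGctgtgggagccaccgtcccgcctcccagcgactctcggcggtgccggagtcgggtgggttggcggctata
INSIG1: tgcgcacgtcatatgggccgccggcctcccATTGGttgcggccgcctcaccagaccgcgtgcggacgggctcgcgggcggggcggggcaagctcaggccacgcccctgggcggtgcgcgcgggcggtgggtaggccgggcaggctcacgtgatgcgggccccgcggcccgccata
MVK: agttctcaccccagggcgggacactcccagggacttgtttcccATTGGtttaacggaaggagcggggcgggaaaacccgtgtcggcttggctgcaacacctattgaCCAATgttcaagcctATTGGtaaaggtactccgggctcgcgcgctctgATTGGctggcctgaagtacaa

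The SREBF2 stretch holds the sterol regulatory element, beginning 133 bases before the start site, with 1 NF-Y box downstream of it. The stretches of MSMO1, which fell, and of MVK, which was not called, hold 4 NF-Y boxes each. Motifs were counted as exact matches on both strands in the whole window of 300 bases, 250 before to 50 after the start site, for the 24 measured members with a RefSeq promoter; ACAT2 and SQLE have none in the table. CCAAT was found in 18 of 24 members, against 42.2% of the 14210 genes tested that have a promoter. It was in 7 of the 8 that fell and in 11 of the 16 not called. TCACNCCAC was in 1 of 24 members, SREBF2, against 1.51% of those genes, and the longer classic form of the element, which overlaps it, was in the same member, against 0.07%. The SP1 box GGGCGG was in 22 members (65.9% of genes), the E-box CACGTG in 4, none of them among the 8 that fell (10.9% of genes), and the stress element TGATGNAA in 0 (3.6% of genes). These matches describe letters in a window and not sites in use. Only exact forms were searched, so a member without a match may still hold a variant of the element or one outside the window.

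The mevalonate pathway starts with ACAT2, the cytosolic thiolase that joins acetyl-CoA units. ACAT2 had log2 intensities of 9.10 and 9.17 with DMSO and of 8.44 and 8.40 with DZNep, a fall of 1.64-fold (log2 fold change −0.72, SE 0.09, limma adjusted p = 0.0016). HMGCS1, the synthase that makes HMG-CoA, had 9.33 and 9.29 with DMSO and 8.42 and 8.47 with DZNep, a fall of 1.82-fold (−0.86, SE 0.09, limma adjusted p = 6.2e-04). In both genes the DZNep arrays lay well below the DMSO arrays, with differences within a group of at most 0.07. IDI1, the isomerase that interconverts the isoprenoid building blocks, had 8.18 and 8.39 with DMSO and 7.58 and 7.56 with DZNep, a fall of 1.64-fold (−0.72, SE 0.10, limma adjusted p = 0.0028).

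The other steps measured up to farnesyl diphosphate were not called. MVK, mevalonate kinase, had 7.08 and 7.13 with DMSO and 7.11 and 7.19 with DZNep, values that overlap, with a log2 fold change of 0.05 (95% interval −0.17 to 0.26). PMVK, the next kinase, had a value of −0.22 (−0.45 to 0.0081), and MVD, the decarboxylase that follows, −0.15 (−0.38 to 0.08). FDPS, which builds farnesyl diphosphate, had 9.08 and 9.32 with DMSO and 8.87 and 8.98 with DZNep. Its DZNep arrays were both lower, but its log2 fold change of −0.27 (95% interval −0.52 to −0.03) did not pass (limma adjusted p = 0.175), and its value ranged from −0.39 (DMSO replicate 1 left out) to −0.16 (DMSO replicate 2 left out). For PMVK and MVD, too, the arrays did not overlap, and with arrays left out in turn PMVK ranged from −0.29 to −0.16 and MVD from −0.22 to −0.08.

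From squalene onward, 4 of 9 enzymes measured fell. SQLE, squalene epoxidase and a rate-setting step of the later pathway, had 8.53 and 8.72 with DMSO and 7.67 and 7.98 with DZNep, a fall of 1.74-fold (−0.80, SE 0.13, limma adjusted p = 0.0041). Its DZNep arrays differed by 0.32, as much as those of TM7SF2 and more than those of the other members, and both were still lower than the DMSO arrays by at least 0.55. CYP51A1, the lanosterol demethylase, had 8.63 and 8.56 with DMSO and 7.99 and 7.92 with DZNep, a fall of 1.55-fold (−0.64, SE 0.10, limma adjusted p = 0.0032). MSMO1, the methyl sterol oxidase of a later step, had 8.50 and 8.49 with DMSO and 7.49 and 7.45 with DZNep. It fell 2.03-fold (−1.02, SE 0.09, limma adjusted p = 2.8e-04), and its replicates agreed within 0.04. DHCR7, the reductase that makes cholesterol from 7-dehydrocholesterol, had 8.48 and 8.59 with DMSO and 7.81 and 7.94 with DZNep, a fall of 1.58-fold (−0.66, SE 0.10, limma adjusted p = 0.0035).

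The other later enzymes stayed near their DMSO level or below it by less than the test could call. LSS, which closes squalene epoxide to lanosterol, had a log2 fold change of −0.09 (95% interval −0.31 to 0.14). NSDHL, a sterol dehydrogenase of the demethylation complex in which MSMO1 also works, had 8.26 and 8.15 with DMSO and 8.09 and 8.21 with DZNep, with a log2 fold change of −0.05 (−0.28 to 0.17). EBP, the sterol isomerase, had 9.05 and 9.02 with DMSO and 9.03 and 9.02 with DZNep, and its arrays were interleaved (−0.01, interval −0.22 to 0.20). TM7SF2, a sterol reductase, had −0.02 (−0.29 to 0.26), and its DZNep arrays fell on both sides of the DMSO arrays. SC5D, the desaturase just before DHCR7, had −0.17 (−0.39 to 0.05) with both DZNep arrays lower. With arrays left out in turn SC5D ranged from −0.24 to −0.10 and LSS from −0.16 to −0.0090. The signs of NSDHL, EBP and TM7SF2 changed in some re-fits, so no direction is given for them. Over the 16 synthesis enzymes measured, 7 fell by 0.64 to 1.02 on the log2 scale, while the 9 not called had values from −0.27 to 0.05.

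**Figure D1:**
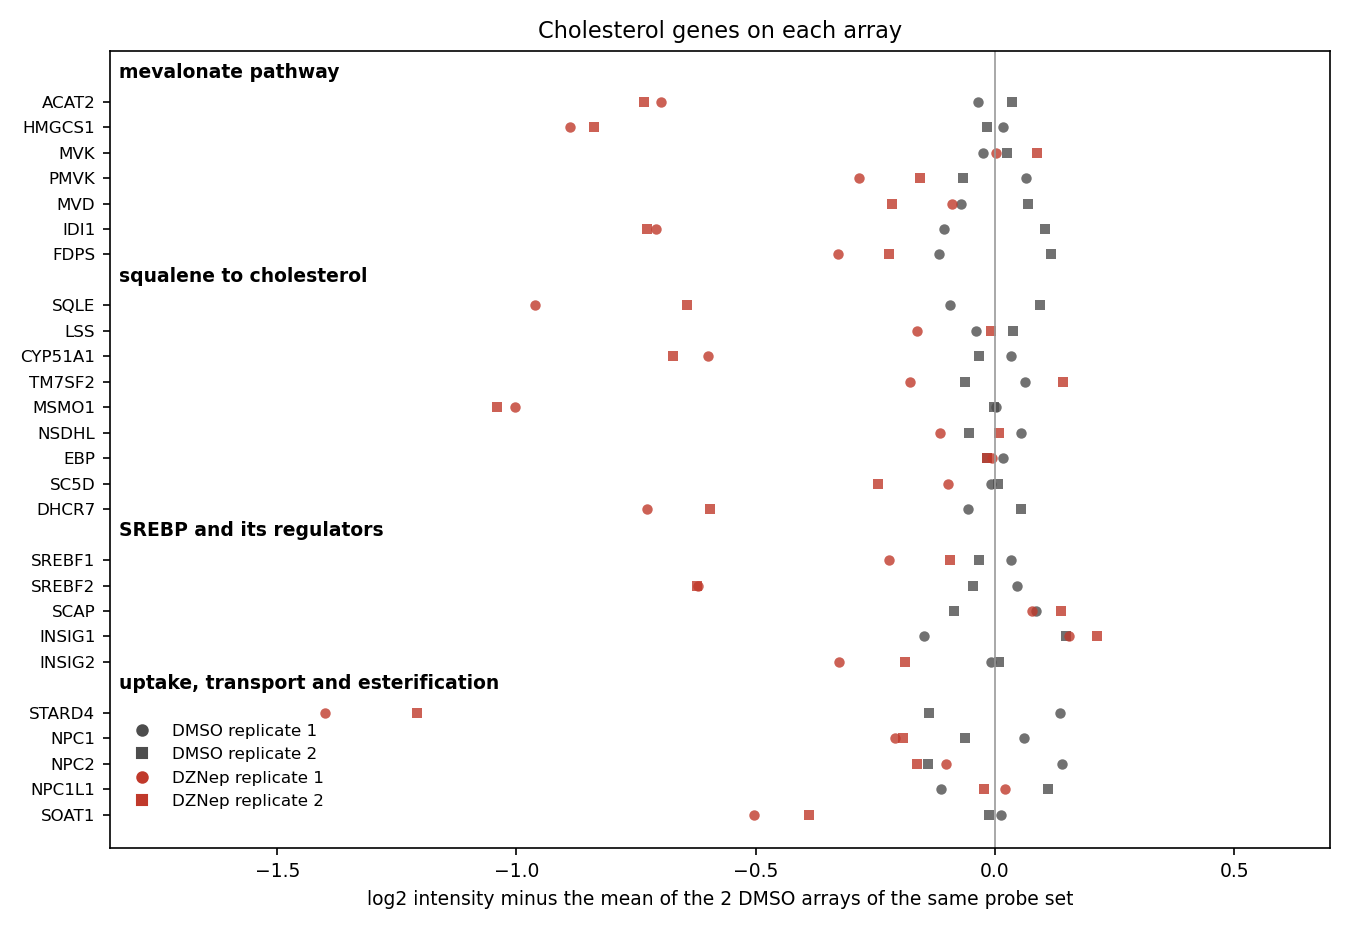
Log2 intensity of each of the 26 measured cholesterol genes on each array, minus the mean of the 2 DMSO arrays of the same probe set; grey symbols are DMSO, red symbols DZNep, circles replicate 1 and squares replicate 2. Both red symbols lie left of both grey symbols for 17 genes, by the widest margin for STARD4, and symbols overlap for genes such as EBP and MVK.

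Among the 5 regulators in the list, the gene of SREBP-2 fell, and SREBF1, SCAP, INSIG1 and INSIG2 were not called. SREBF2, which encodes the SREBP that acts mainly on cholesterol genes, had 9.25 and 9.16 with DMSO and 8.58 and 8.58 with DZNep, a fall of 1.54-fold (−0.62, SE 0.09, limma adjusted p = 0.0035). SREBF1, whose products act mainly on fatty acid genes, had 8.31 and 8.24 with DMSO and 8.06 and 8.18 with DZNep, a log2 fold change of −0.16 (95% interval −0.38 to 0.06, limma adjusted p = 0.418). SREBF1 was thus lower on both DZNep arrays by an amount within the reach of the error, and its value ranged from −0.22 to −0.09 with arrays left out in turn. Whether SREBF2 and SREBF1 differ in their change was not tested. SCAP, the escort, had 8.93 and 8.75 with DMSO and 8.92 and 8.98 with DZNep, with a log2 fold change of 0.11 (−0.12 to 0.34), which ranged from 0.02 (DMSO replicate 2 left out) to 0.20 (DMSO replicate 1 left out).

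INSIG1, the retention factor that is itself a well-known SREBP target, was the only member whose DZNep arrays both lay above both DMSO arrays. It had 8.54 and 8.83 with DMSO and 8.84 and 8.90 with DZNep, so the nearest arrays were 0.0067 apart, and its log2 fold change was 0.18 (95% interval −0.08 to 0.45, limma adjusted p = 0.427). Leaving out DMSO replicate 2 gave 0.33 (limma adjusted p = 0.0627), and leaving out DMSO replicate 1 gave 0.04 (0.869). INSIG2, the second retention factor and one less dependent on SREBP, had 9.15 and 9.16 with DMSO and 8.83 and 8.97 with DZNep, a log2 fold change of −0.26 (95% interval −0.48 to −0.04) that did not pass (limma adjusted p = 0.15). FDPS and INSIG2 were the 2 uncalled members with an unadjusted p under 0.05, a count without the share of all genes beside it.

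The largest fall of all members was in a transport gene. STARD4, the soluble carrier that moves sterol between membranes and a known SREBP-2 target, had 9.84 and 9.57 with DMSO and 8.31 and 8.50 with DZNep, a fall of 2.47-fold (−1.30, SE 0.12, limma adjusted p = 3.0e-04). Both DZNep arrays were at least 1.07 below any DMSO array, and 0.288% of all genes tested had a lower log2 fold change. SOAT1, which esterifies cholesterol for storage, had 8.92 and 8.90 with DMSO and 8.41 and 8.52 with DZNep, a fall of 1.36-fold (−0.45, SE 0.10, limma adjusted p = 0.0187). It was the smallest fall called, and without DZNep replicate 1 it was no longer called (−0.39, limma adjusted p = 0.206).

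The lysosomal exporters were not called. NPC1, the membrane transporter, had 8.20 and 8.08 with DMSO and 7.93 and 7.95 with DZNep, a log2 fold change of −0.20 (95% interval −0.42 to 0.02). NPC2, its soluble partner, had −0.13 (−0.39 to 0.12) with overlapping arrays. NPC1L1, the sterol uptake transporter of intestine and liver, had 6.49 and 6.71 with DMSO and 6.62 and 6.58 with DZNep, which overlap, at a log2 fold change of −0.00089 (−0.24 to 0.24). The values of NPC2 and NPC1L1 changed sign in some re-fits, so no direction is given for them. NPC1L1 was the dimmest member, and 3 members were dimmer than the median gene.

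**Figure D2:**
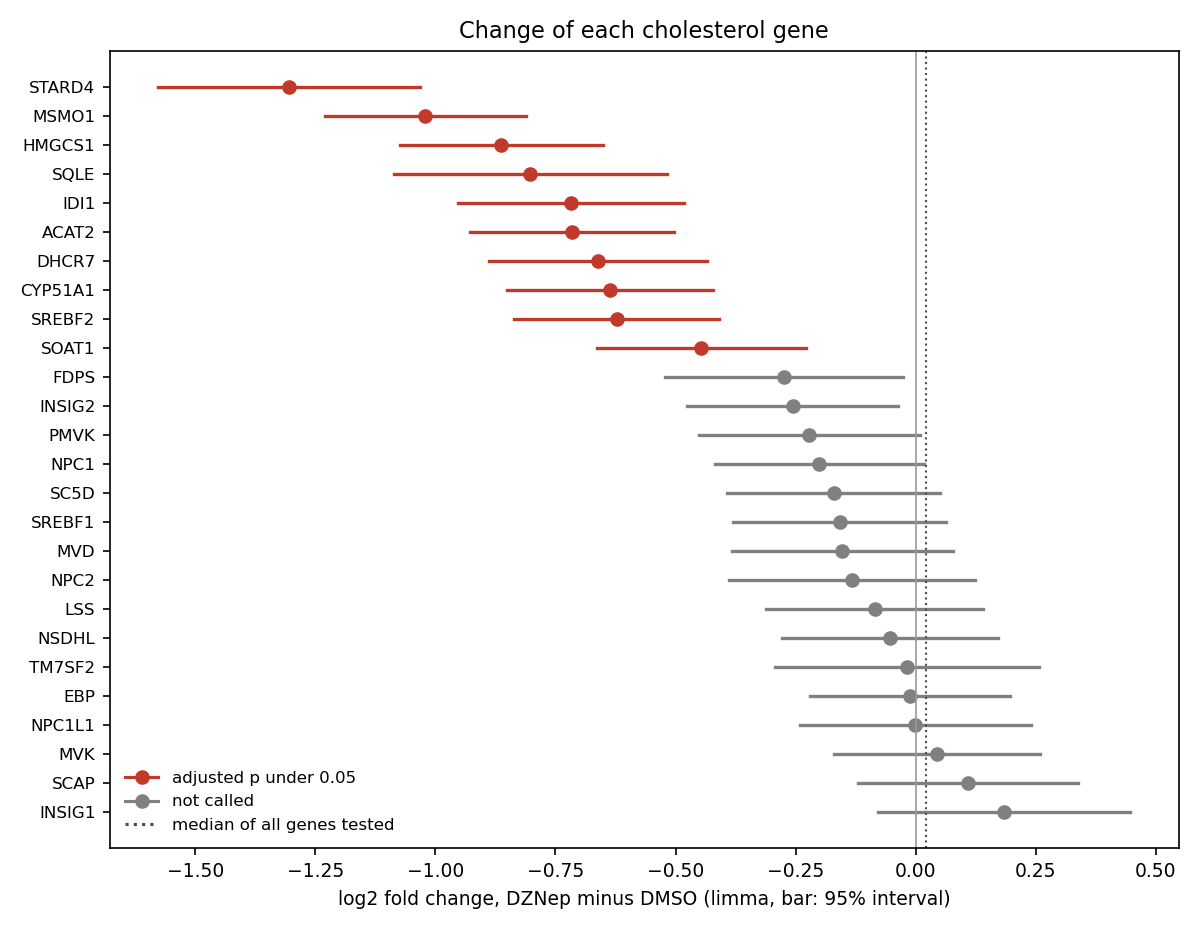
Log2 fold change (DZNep minus DMSO, limma) of each member with its 95% interval, sorted; red marks adjusted p under 0.05, grey not called, and the dotted line the median of all genes tested. The 10 called members lie between −1.30 and −0.45, and the 16 others between −0.27 and 0.18.

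The smallest called change, −0.45 for SOAT1, and the lowest uncalled one, −0.27 for FDPS, lay closer together without DMSO replicate 1 (−0.43 and −0.39). Of the 16 uncalled members, 7 had both DZNep arrays below both DMSO arrays, against 23.9% of all genes tested, called or not. In each of the 10 that fell, the smallest distance between a DZNep and a DMSO array, at least 0.38, exceeded the difference between replicates of either group. The calls were made from these same differences, so this is no separate support for them. The median difference between the DMSO arrays was 0.11 over the 26 members, and between the DZNep arrays 0.10. The standard errors of the called members (0.09 to 0.13) and of the others (0.09 to 0.12) were alike, so the calls follow the size of the change. The intervals of the 16 uncalled members reached as low as −0.52 and as high as 0.45, so the data leave room for changes of up to that size in single genes. When each array was left out in turn, 9 of the 10 stayed called every time, SOAT1 being the other one. In the re-fits without a DZNep array, limma gave every gene the same variance.

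**Figure D3:**
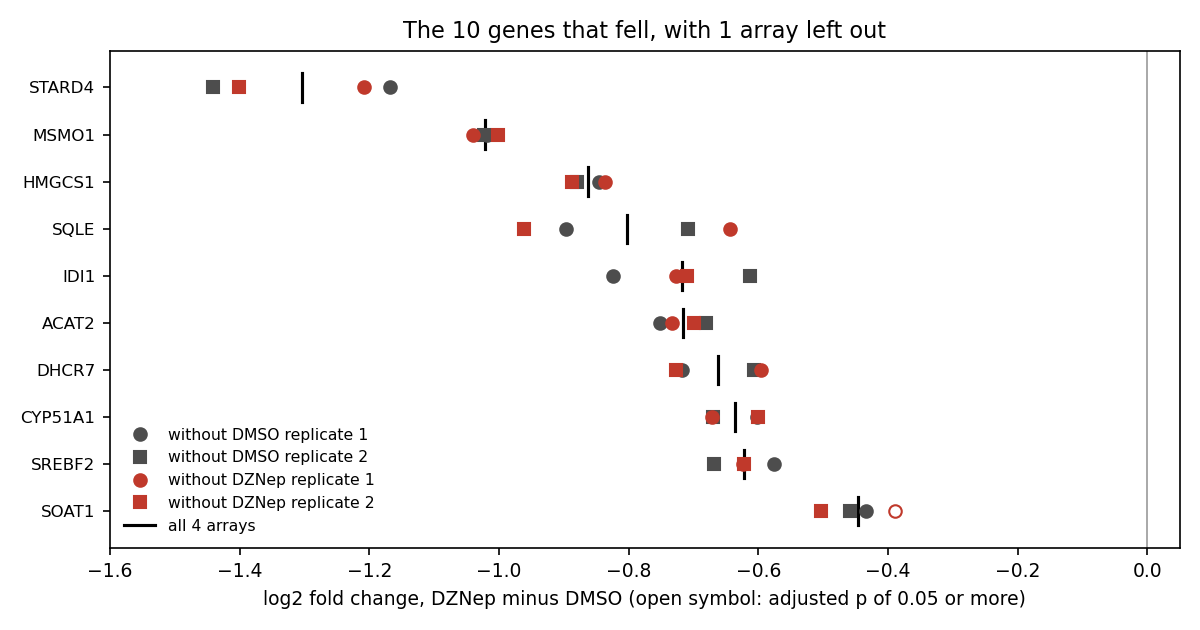
Log2 fold change (DZNep minus DMSO, limma) of the 10 members that fell, with all 4 arrays (black tick) and with each array left out (grey: DMSO, red: DZNep; circles replicate 1, squares replicate 2; open symbol, adjusted p of 0.05 or more). Values stay below 0 throughout, and the 1 open symbol is SOAT1 without DZNep replicate 1.

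Other genes of the pathway were taken from lists by function, which were also drawn up with earlier results of these data known. Of 11 other genes of sterol and isoprenoid synthesis measured, 3 fell and 1 rose, with a median log2 fold change of −0.21. The largest of the 3 falls was in ACAT1, counted here although it is the mitochondrial thiolase of ketone body metabolism. It had 8.64 and 8.72 with DMSO and 7.75 and 7.78 with DZNep (−0.91, limma adjusted p = 5.3e-04). NUS1, a subunit of the dolichol-making prenyltransferase, fell by 0.60 (limma adjusted p = 0.005). Of the genes for the ubiquinone side chain, PDSS1 had −0.51 (limma adjusted p = 0.0292) and COQ2 0.42 (0.0322). The call of PDSS1 ended without DMSO replicate 1 or 2 or DZNep replicate 2 (−0.55 to −0.34, adjusted p 0.0759 to 0.326), under quantile normalization (−0.48, 0.0622) and with 16 subtracted from the intensities (−0.54, 0.0669). COQ2 lost its call when DMSO replicate 1 or any 1 DZNep array was dropped (0.33 to 0.45, adjusted p 0.0847 to 0.224) and with 16 subtracted (0.43, 0.0748).

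Genes that process or degrade SREBPs and their partners had values on both sides of 0. Their counts stand beside 6.68% of all genes tested that fell and 3.62% that rose (limma). Of 14 measured, 5 fell and none rose (limma), or 3 fell without DZNep replicate 1 and 3 without DZNep replicate 2, with a median of 0.01 that was −0.11 without DMSO replicate 2, −0.05 without DZNep replicate 2 and −0.03 with the mean over probe sets. Of the proteases that release SREBPs in the Golgi, MBTPS2 had 8.25 and 8.08 with DMSO and 7.55 and 7.63 with DZNep (−0.57, limma adjusted p = 0.008), while MBTPS1 had 0.03 (0.896). The 9 genes not called ran from −0.18 for PAQR3 to 0.25 for SPRING1. In 3 of them, SPRING1, FAF2 and RNF139, both DZNep arrays lay above both DMSO arrays (0.25, 0.18 and 0.16, limma adjusted p 0.141, 0.291 and 0.402). The same placement was seen in 25.9% of all genes tested. FAF2, a factor of sterol-dependent degradation, has 2 probe sets. The brighter one, which stands for it, had 13.34 and 13.34 with DMSO and 13.51 and 13.54 with DZNep. This probe set passed the test under cyclic loess (0.34, limma adjusted p = 0.0391) and under both intensity trends (0.18, 0.0226 and 0.0127). The mean over both probe sets was −0.06 (limma adjusted p = 0.818), so they did not share a direction and none is given for FAF2. HSP90B1, a chaperone of the endoplasmic reticulum, fell by 1.19 (limma adjusted p = 3.3e-04) and TMED2, a cargo receptor of transport vesicles, by 0.75 (0.0016). ERLIN2, which takes part in sterol-dependent degradation, had −0.49 (limma adjusted p = 0.0196), which lost its call when DMSO replicate 1 or either DZNep array was left out (−0.49 to −0.37, adjusted p 0.055 to 0.0678).

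Lipoprotein uptake and cholesterol traffic held 4 falls and no rise among 16 genes (limma), against 6.68% and 3.62% of all genes tested. The median was −0.13, or −0.22 without DMSO replicate 2 and −0.05 without DMSO replicate 1. The falls were 2 without DMSO replicate 1, 1 without DZNep replicate 1 and 2 without DZNep replicate 2. TMEM97, a sterol-regulated protein that binds NPC1, had 8.94 and 8.91 with DMSO and 7.95 and 7.98 with DZNep (−0.96, limma adjusted p = 3.6e-04). The oxysterol-binding protein OSBP had −0.50 (limma adjusted p = 0.0192), and the lipoprotein receptors VLDLR and LRP8 had −0.47 (0.0128) and −0.40 (0.0332). The call of OSBP ended without DMSO replicate 1 or DZNep replicate 1 (−0.40 and −0.44, adjusted p 0.0643 and 0.118). Those of VLDLR and LRP8 ended without either DZNep array (−0.49 to −0.37, adjusted p 0.0595 to 0.243), and LRP8 also without DMSO replicate 1 (−0.33, 0.0835). With 16 subtracted from the intensities neither OSBP (−0.52, limma adjusted p = 0.05004) nor LRP8 (−0.42, 0.0724) passed.

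Of 16 fatty acid and phospholipid genes under SREBP control, 5 fell and none rose (limma), against 6.68% and 3.62% of all genes tested. The median was −0.19 and ranged from −0.24 to −0.13 with arrays left out in turn. The 11 not called ran from −0.26 for ACLY to 0.28 for ACSS2 (limma adjusted p 0.131 and 0.121). FADS2, FADS1 and SCD, the fatty acid desaturases, fell by 2.18, 1.55 and 1.22 (limma adjusted p 1.5e-04 to 2.4e-04). With DZNep, FADS2 had 6.39 and 6.47 and FADS1 7.10 and 7.31, all dimmer than the array's median gene, so their folds may be understated. FADS2 was −2.49 when DMSO replicate 1 was left out and −1.88 when DMSO replicate 2 was. ACACA, acetyl-CoA carboxylase, had 8.49 and 8.32 with DMSO and 7.83 and 7.78 with DZNep (−0.60, limma adjusted p = 0.0058). LXR is a receptor that acts when sterols are plentiful. Of 10 genes tied to LXR and oxysterols, 3 rose and none fell (limma), against 3.62% and 6.68% of all genes tested. The median was 0.16, or 0.05 without DMSO replicate 1 and 0.57 without the dimmest 50% of genes. The 7 not called ran from −0.12 for ABCG1 to 0.31 for LPCAT3 (limma adjusted p 0.596 and 0.0867). Whether LXR itself acted was not tested. GPR183, a receptor for oxysterols, rose by 1.83. ABCA1, the cholesterol exporter, had 8.90 and 8.53 with DMSO and 9.36 and 9.47 with DZNep (0.70, limma adjusted p = 0.0092). SMPDL3A, a phosphodiesterase, had 0.44 (limma adjusted p = 0.0193), a call that ended without either DZNep array (0.39 and 0.48, adjusted p 0.201 and 0.074).

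**Figure D4:**
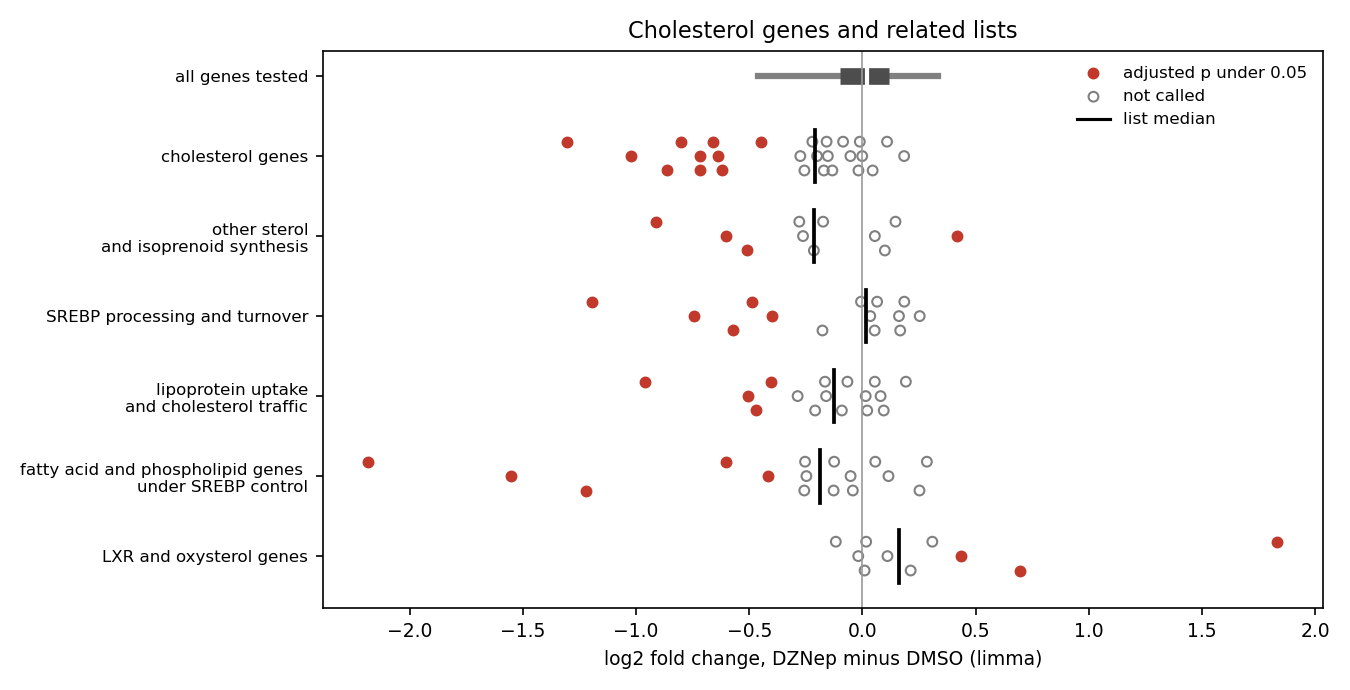
Log2 fold change (DZNep minus DMSO, limma) of the members and of genes in 5 related lists, with red for adjusted p under 0.05, open grey for not called, a black line for each list's median, and above them the middle 50% (dark) and 90% (light) of all genes tested. The 10 called cholesterol genes lie left of 0, and the 3 called genes of the LXR and oxysterol list lie right of it.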

How the data were processed

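Gene expression was measured in 4 samples of MOLM-14 cells on Affymetrix whole-transcript arrays. Per the submitters' processing notes, the authors summarised the arrays with RMA, and the deposited table holds linear intensities, 1 for each probe set on each array (lowest 18.1 to 18.5, highest 14594 to 16502). The sources used here do not give the RMA version, the software or any constant added to the intensities; such a constant would shrink the folds of dim genes. The array groups and replicate numbers come from the sample titles.

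Here log2 was taken with no pseudocount, no filter and no further normalization. Of 28869 probe sets, 19310 have 1 symbol in the platform annotation, which can be old, 1752 have several and 7807 are not listed; the entrez IDs of 19279 were found in RefSeq and changed 0 symbols. The brightest probe set by mean log2 stands for a gene. The test was limma's (version 3.58.1, R 4.3.3; lmFit, eBayes, group as the only term, two-sided, 2 residual and 7.18 prior degrees of freedom), with Benjamini-Hochberg adjustment over 18377 genes. The script was tested on simulated data. The members, lists and tests were chosen with earlier results of these data known. All members are named, and from each related list up to 4 called genes with the largest change. MBTPS1, SPRING1, FAF2, RNF139, PAQR3, ABCG1, LPCAT3, ACLY, ACSS2, PGGT1B and GGPS1 were added after their values were seen. So were the 3 called myeloid markers and CD68, ITGAM and PTPRC. No label says that a replicate number pairs samples, so the numbers were not taken to pair them. Same-numbered arrays of the groups tended weakly to deviate in opposite directions (correlation over genes −0.219), which by itself cannot show whether samples were paired. Alternatives were the replicate block, 3 normalizations, 16 subtracted from the intensities, filters on dim genes, other variance models, the mean over probe sets, a test against a 1.2-fold change and leaving out each array.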

Additional observations from a re-analysis of the deposited data

How the results depend on the processing

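Under the 16 alternatives no uncalled member became called, and 6 of the 10 falls kept their call throughout. With each array left out in turn, 9 to 10 members fell. Against a 1.2-fold change (treat) 6 fell, since CYP51A1 (adjusted p = 0.0596), DHCR7 (0.057), SREBF2 (0.07) and SOAT1 (0.632) did not pass; of the named list genes, NUS1, PDSS1, COQ2, MBTPS2, ERLIN2, OSBP, VLDLR, LRP8, ACACA, ABCA1 and SMPDL3A did not pass either (0.103 to 1), nor did LYZ and CSF1R (0.272 and 0.463). Over all genes 341 fell and 151 rose. The same setting left 1, 2, 1 and 3 falls in the lists of other sterol synthesis, SREBP processing, lipoprotein uptake and fatty acid genes, 0 rises in the first and 1 rise in the LXR list. The median of the members was −0.26 without the dimmest 50% of genes, where 3 members drop out, and −0.26 to −0.20 with arrays left out. Leaving out arrays gave 734 to 1662 falls and 336 to 776 rises over all genes, 0 to 1 rises in other sterol synthesis, 3 to 4 falls in SREBP processing and 1 to 5 in lipoprotein uptake. With 16 subtracted, other sterol synthesis had 0 rises and lipoprotein uptake 2 falls. Cyclic loess, the intensity trend and its robust form each gave 1 rise in SREBP processing. The replicate block gave 10 falls among members, as did the crossed pairing, chosen after seeing the data, with 1034 rises over all genes. Uncalled members near 0 changed sign: EBP was 0.041 under quantile normalization, 0.018 under cyclic loess and −0.029 to 0.0057 with arrays left out, where TM7SF2 went from −0.18 to 0.14, NSDHL from −0.12 to 0.0091, NPC2 from −0.27 to 0.0067 and NPC1L1 from −0.11 to 0.11. Where an array was left out, the sample left alone in its group was taken to vary as the other group does. Without either DZNep array the prior degrees of freedom were infinite, so 1 variance served all genes. Causes beyond the construction of each setting were not tested.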

Other observations

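The values below were chosen after they were seen. HSD17B7P2, the pseudogene whose sequence resembles the sterol enzyme gene HSD17B7, has a probe set of its own, with 8.82 and 8.59 with DMSO and 7.89 and 7.56 with DZNep (log2 fold change −0.98, SE 0.13, limma adjusted p = 0.0019). Its arrays do not overlap, and its probes may also bind HSD17B7 transcripts, so the value is uncertain as to its source. MIR33A, the microRNA gene inside an intron of SREBF2, had 5.13 and 5.08 with DMSO and 5.25 and 5.02 with DZNep (0.03, limma adjusted p = 0.919), close to the dim end of the arrays, where a change is hard to measure.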
